A study of Homo sapiens with 19 samples.

Results

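The comparison described here asks how far the state that cells reach 8 days after a pulse of doxorubicin depends on MYCN. For each gene it is the log2 change between day 8 and untreated cells in MYCN-high cells, minus the same change in MYCN-low cells, so a positive difference means a higher response in MYCN-high cells. It was computed from 8 of the 19 libraries of a read count study of SHEP TET21N, an established human neuroblastoma line that carries a MYCN transgene which doxycycline switches off. The 4 groups, of 2 libraries each, were MYCN-high cells 8 days after washout (no doxycycline, 0.1 µg/ml doxorubicin for 72 h, then drug-free medium), MYCN-high untreated cells (neither agent), MYCN-low cells 8 days after washout (doxycycline and the same pulse of doxorubicin) and MYCN-low untreated cells (doxycycline only). The groups are limited as a model in that 1 line was used, that doxycycline is present in every MYCN-low group and cannot be told apart from low MYCN, and that untreated cells of the later times were not analysed here. The series describes the 2 libraries of a group as biological duplicates, lettered B and C.

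Doxorubicin poisons topoisomerase II and so causes breaks in both DNA strands. Damaged cells activate p53, which induces the cell cycle inhibitor CDKN1A, and the DREAM complex then represses the genes of replication and mitosis. Cells may resume division once the damage is repaired, or stay arrested in senescence, a state in which lamin B1 is characteristically lost and secreted and matrix proteins change. MYCN, a relative of MYC that is amplified in some aggressive neuroblastomas, activates genes of growth and of entry into the cell cycle.

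The transgene behaved as labelled, with MYCN at 697 and 723 CPM in MYCN-high cells at day 8 and 675 and 690 CPM in MYCN-high untreated cells. In MYCN-low cells the values were 22.1 and 24.9 CPM at day 8 and 30.7 and 19.1 CPM untreated. CPM are counts scaled to a common library size with TMM factors. MYCN itself did not pass the test of the difference (0.14 ± 0.42 on the log2 scale, edgeR adjusted p = 0.89; standard error as for all values given with ±). The 8 libraries held 17131976 to 27664604 counts, of which 0.037% to 0.367% fell on ERCC spike-in RNAs, and 14793 of 23367 genes were tested. Genes of mesenchymal neuroblastoma cells such as VIM (748 CPM or more in every library of the series) and PRRX1 (104 CPM or more) were expressed, and SNAI2 of that list ran from 1.13 to 89.9 CPM. The adrenergic factor gene PHOX2A was at 0 CPM in every library and HAND2 of the same list at 46.0 to 325 CPM. PTPRC of blood cells was at or below 2.04 CPM and CDH5 of endothelial cells at or below 0.153 CPM. Of the Schwann and melanocyte markers, SOX10 was at 0 CPM in every library and MITF at 19.1 to 80.1 CPM. MITF was called lower in the difference (-1.68, edgeR adjusted p = 0.0404), a call not kept in every fit without 1 library. Of the epithelial markers, EPCAM stayed at or below 2.02 CPM and CDH1 at or below 0.217 CPM, while KRT8 and KRT18 were expressed, and 0 of the 4 tested were called in the difference. In MYCN-low untreated cells, 2647 genes differed more than 2-fold between libraries B and C, against 1151 to 1318 in the other 3 groups. Values are shares of RNA in cultures, in which fewer cells of a kind and less RNA per cell cannot be told apart.

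edgeR's quasi-likelihood test called 939 genes, or 6.35% of those tested, at an adjusted p of 0.05 or less. Of these, 652 were higher in the difference (4.41%) and 287 lower (1.94%), against a median log2 difference of 0.05 over all tested genes. Most higher genes were low in MYCN-low cells at day 8, since 535 of the 652 had fallen there and were not called in MYCN-high cells. Over all 652 the median log2 change was -0.08 in MYCN-high cells and -1.72 in MYCN-low cells. Of the lower genes, 165 had risen in MYCN-low cells without a call in MYCN-high cells, and 86 had fallen in MYCN-high cells without a call in MYCN-low cells. In 21 genes the states were called in opposite directions, 7 of them up and 14 of them down in MYCN-high cells. All 939 genes had the same sign in the B libraries alone and in the C libraries alone. The calls rest on these same libraries, so this is no separate check of them. Scaled by DESeq2 size factors, edgeR called 893 genes, 488 higher and 405 lower, so the share of higher genes was 54.6% in place of 69.4%. Scaled by the ERCC RNAs, edgeR called 0 genes at the adjusted threshold, with 130 at an unadjusted p under 0.05, while the Wald test of DESeq2 called 1625. In edgeR fits without 1 library the count ran from 246 (without MYCN-high day 8 library C) to 3036 (without MYCN-low untreated library C), and 169 genes kept their call in all 8 such fits, 127 higher and 42 lower. The genes named below as changed in the difference kept it in these 8 fits unless a library is named.

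**Figure D1:**
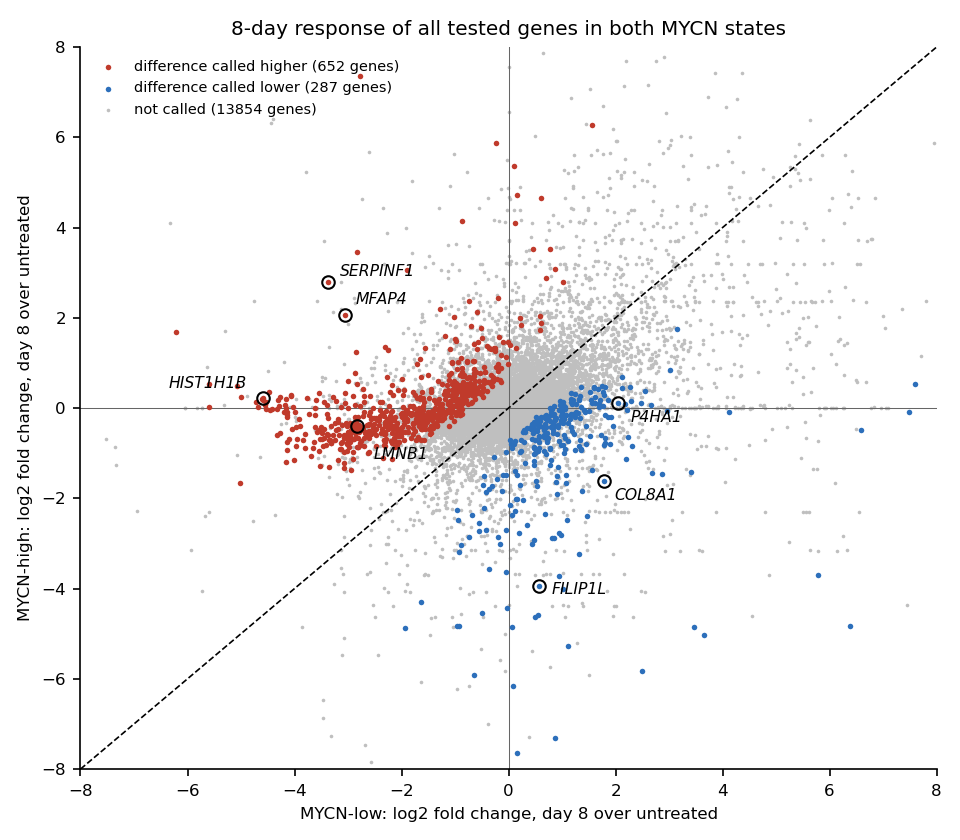
Each point is 1 of 14793 tested genes, with its log2 fold change between day 8 and untreated cells in MYCN-low cells across and in MYCN-high cells upward, and the dashed line marks equal responses. The 652 genes called higher (red) lie mostly left of 0 and near 0 in height, the 287 called lower (blue) lie below the line, and 10 genes fall outside the plotted range of plus or minus 8.

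The arms of the comparison were of unequal size. At day 8, 1269 genes differed from untreated cells in MYCN-high cells (8.58% of those tested, 664 higher and 605 lower), and 3681 in MYCN-low cells (24.9%, 1516 higher and 2165 lower). A larger count in 1 state does not itself show a difference, which was tested gene by gene as above.

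Promoter sequence is shown for 3 of the gene groups described, genes of mitosis and DNA replication, of which many were higher, and genes of glycolysis and hypoxia, of which some were lower. The 6 promoters below belong to the 2 called members of each list with the smallest p whose promoter holds the motif searched. They run from 250 bases before to 50 bases after the RefSeq transcript start on GRCh38.p14, 5′ to 3′ on the gene's strand, while the counts were made on hg19. Capitals mark TTTGAA, the CHR element bound by the DREAM and MuvB complexes, in KIF15 (chr3:44761544-44761843, plus strand) and NUF2 (chr1:163321704-163322003, plus strand). They mark GCGGGAA, an E2F core, in LIG1 (chr19:48170295-48170594, minus strand) and TYMS (chr18:657403-657702, plus strand), and ACGTGC, a core of hypoxia response elements, in BNIP3 (chr10:131981874-131982173, minus strand) and HK2 (chr2:74833877-74834176, plus strand). Motifs were searched on both strands, and ACGTGC can overlap the E-box CACGTG of MYC and MAX, as it does in BNIP3.
KIF15: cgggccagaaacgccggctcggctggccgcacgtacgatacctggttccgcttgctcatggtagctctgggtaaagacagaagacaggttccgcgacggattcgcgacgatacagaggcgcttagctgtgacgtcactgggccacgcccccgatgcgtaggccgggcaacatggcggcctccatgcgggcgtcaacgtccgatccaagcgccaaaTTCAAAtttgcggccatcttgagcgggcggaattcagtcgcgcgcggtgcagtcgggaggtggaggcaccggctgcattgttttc
NUF2: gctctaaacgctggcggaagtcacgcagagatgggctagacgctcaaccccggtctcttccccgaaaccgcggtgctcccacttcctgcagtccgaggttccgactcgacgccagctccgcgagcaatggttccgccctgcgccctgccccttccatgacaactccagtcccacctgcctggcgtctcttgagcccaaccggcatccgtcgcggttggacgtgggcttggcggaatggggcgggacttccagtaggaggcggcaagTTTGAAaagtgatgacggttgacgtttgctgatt
LIG1: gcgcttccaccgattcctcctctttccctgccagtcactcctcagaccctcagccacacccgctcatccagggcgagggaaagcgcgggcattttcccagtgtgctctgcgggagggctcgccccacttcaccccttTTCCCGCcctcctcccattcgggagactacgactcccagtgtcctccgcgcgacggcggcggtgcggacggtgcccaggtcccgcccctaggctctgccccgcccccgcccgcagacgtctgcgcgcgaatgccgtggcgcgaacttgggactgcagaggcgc
TYMS: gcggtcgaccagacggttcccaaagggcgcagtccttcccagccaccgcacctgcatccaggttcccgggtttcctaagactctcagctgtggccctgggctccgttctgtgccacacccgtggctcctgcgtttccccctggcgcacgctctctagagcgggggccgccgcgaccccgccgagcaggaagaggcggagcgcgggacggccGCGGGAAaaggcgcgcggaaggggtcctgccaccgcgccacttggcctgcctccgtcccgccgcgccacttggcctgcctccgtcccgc
BNIP3: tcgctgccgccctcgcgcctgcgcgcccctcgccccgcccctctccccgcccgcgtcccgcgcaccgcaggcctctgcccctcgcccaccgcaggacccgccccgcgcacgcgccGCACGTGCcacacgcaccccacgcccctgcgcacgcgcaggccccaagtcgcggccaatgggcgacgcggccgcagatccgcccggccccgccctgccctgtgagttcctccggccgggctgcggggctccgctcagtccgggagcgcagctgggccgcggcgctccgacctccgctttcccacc
HK2: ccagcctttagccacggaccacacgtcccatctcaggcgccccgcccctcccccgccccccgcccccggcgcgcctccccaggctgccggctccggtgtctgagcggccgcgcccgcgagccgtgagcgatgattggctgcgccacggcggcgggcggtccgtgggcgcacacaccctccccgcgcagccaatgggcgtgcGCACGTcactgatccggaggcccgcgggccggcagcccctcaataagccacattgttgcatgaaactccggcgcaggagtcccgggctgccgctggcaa

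Of the 46 mitosis genes tested, 38 had a promoter in the table, and 28 of these (73.7%) held TTTGAA, against 15.4% of all 27305 promoters. The E2F core GCGGGAA stood in 18 of 39 DNA replication promoters (46.2%) and in 6.56% of all promoters. ACGTGC stood in 12 of 37 promoters of the glycolysis and hypoxia list (32.4%) and in 6.87% of all. It stood in 19 of 235 promoters (8.09%) of the genes called lower as a whole, and the promoter of P4HA1 held none. The motifs were not limited to these pairings, since ACGTGC also stood in 8 of 38 mitosis promoters (21.1%) and GCGGGAA in 8 of 37 promoters of the glycolysis and hypoxia list (21.6%). The E-box CACGTG stood in 5 of 38, 5 of 39 and 5 of 37 promoters of the 3 lists, and in 7.43% of all promoters. These are matches of letters within the window, and binding was not measured. For all tested genes (75.5%), for the genes called higher as a whole and for the histone genes, fewer than 80% had a promoter in the table. The same counts are therefore void for these sets. All 27305 promoters include those of genes not tested here, so their shares are not the shares among tested genes.

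LMNB1, which encodes lamin B1 of the nuclear lamina, did not differ detectably from its untreated level in MYCN-high cells at day 8 and was lower than untreated in MYCN-low cells. Its level was 258 and 319 CPM in MYCN-high cells at day 8 and 392 and 366 CPM in MYCN-high untreated cells. In MYCN-low cells it was 25.6 and 35.3 CPM at day 8, against 186 and 249 CPM in untreated cells. Among the groups compared, both MYCN-low libraries at day 8 lay below every other library. The MYCN-high libraries at day 8 lay below the untreated ones by a change that did not pass (-0.39, edgeR adjusted p = 0.476). The difference was 2.44 ± 0.44 (edgeR adjusted p = 0.00636), with a fall of -2.84 ± 0.33 in MYCN-low cells. TMPO, which encodes the lamina-associated polypeptide LAP2, showed the same order, at 533 and 662 CPM in MYCN-high cells at day 8 and 709 and 827 CPM in MYCN-high untreated cells. MYCN-low cells had 61.9 and 79.0 CPM at day 8 and 316 and 528 CPM untreated (difference 2.22 ± 0.39, edgeR adjusted p = 0.00483). Of 25 genes of lamins and the nuclear envelope 9 were higher in the difference (4.41% of all genes were) and 0 lower, with a median of 0.81. Of these 9, LMNB1 and TMPO alone kept the call in all 8 fits without a library, and the count was 2 without MYCN-low day 8 library B, 3 without either MYCN-high untreated library or MYCN-high day 8 library C, and 4 without MYCN-low day 8 library C.

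**Figure D2:**
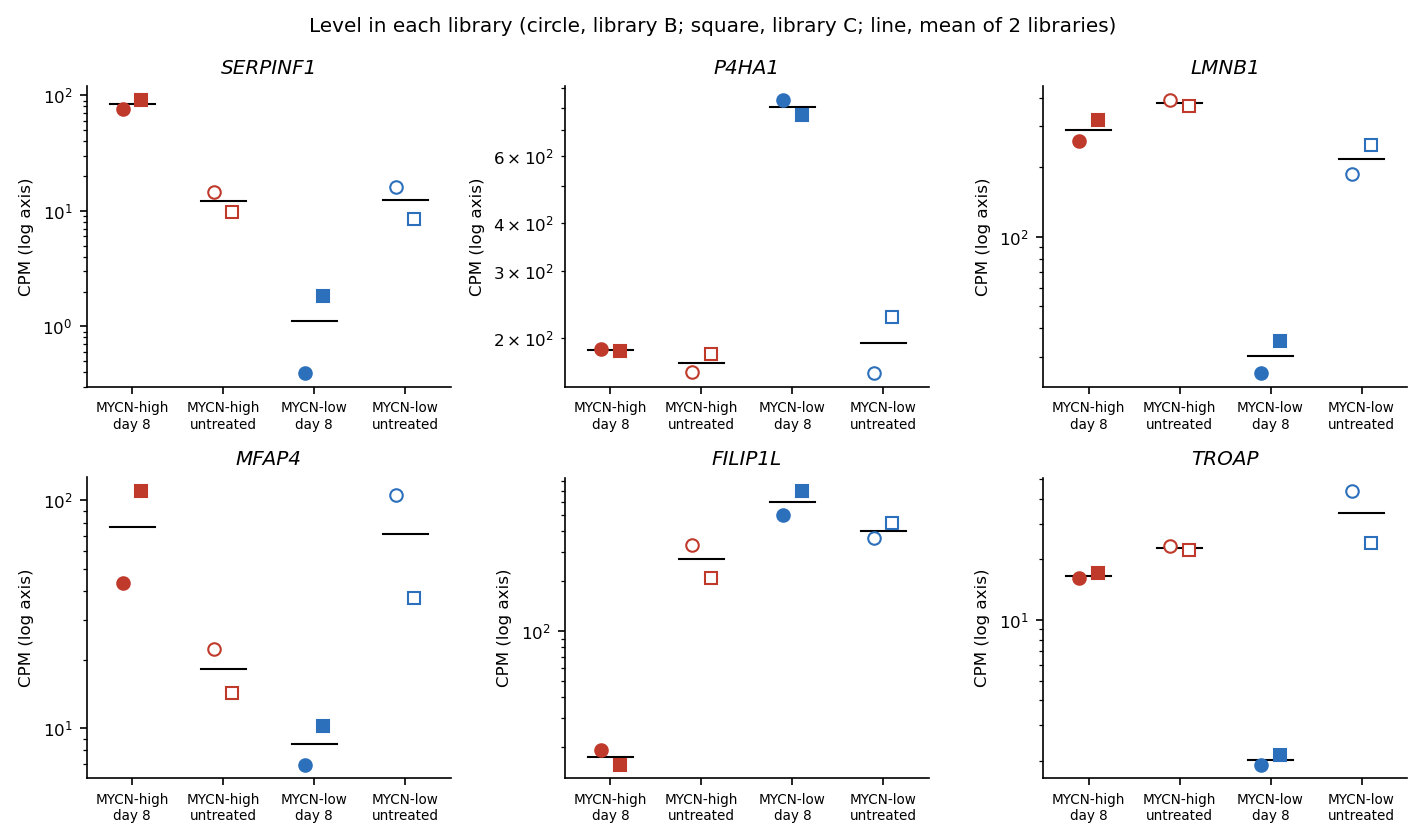
Level of 6 genes in CPM on a log axis in each library of the 4 groups (circle, library B; square, library C; line, mean of 2 libraries; filled, day 8; open, untreated). SERPINF1 and MFAP4 are higher at day 8 than untreated in MYCN-high cells and lower in MYCN-low cells, LMNB1 and TROAP are low only in MYCN-low cells at day 8 among the groups shown, P4HA1 is highest there, and FILIP1L is lowest in MYCN-high cells at day 8.

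Genes of G2 and mitosis were mostly higher in the difference. Of 46 tested, 42 were higher in the difference (4.41% of all genes were) and 0 lower, with a median of 2.33, and all 46 had a positive value. In MYCN-low cells all 46 were lower at day 8 than in untreated cells (median -3.03, where 14.6% of all genes fell), and in MYCN-high cells 3 were (median -0.73, where 4.09% fell). Their summed level was 8772 and 8115 CPM in MYCN-high cells at day 8 and 14997 and 12922 CPM in MYCN-high untreated cells. In MYCN-low cells it was 1113 and 1786 CPM at day 8, against 10333 and 12721 CPM in untreated cells. MYCN-high cells at day 8 were thus below their untreated level as well, by a smaller step. Libraries of MYCN-low cells at day 8 stood apart from all others of the groups compared.

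TROAP, which encodes a protein of the mitotic spindle, was the 1 gene of this list whose call held in all 8 fits without a library. It stood at 16.1 and 17.0 CPM in MYCN-high cells at day 8 and 23.3 and 22.3 CPM in MYCN-high untreated cells. The MYCN-low libraries were at 1.92 and 2.14 CPM at day 8 and 43.6 and 24.3 CPM untreated, a difference of 3.60 ± 0.53 (edgeR adjusted p = 0.00204). KIF15, a kinesin of the spindle, stood at 110 and 125 CPM in MYCN-high cells at day 8 and 116 and 113 CPM untreated, and at 11.4 and 17.1 CPM in MYCN-low cells at day 8, against 69.2 and 126 CPM untreated (difference 2.80 ± 0.55, edgeR adjusted p = 0.0102, and 0.0571 without MYCN-low day 8 library B). NUF2, a kinetochore gene named for its promoter, differed by 2.23 ± 0.44 (edgeR adjusted p = 0.0104) and is not among the genes that kept the call in all 8 fits. For TROAP and KIF15 the low libraries among the groups compared were those of MYCN-low cells at day 8, clear of the rest. MKI67, the proliferation marker Ki-67, was at 587 and 504 CPM in MYCN-high cells at day 8 and 784 and 591 CPM in MYCN-high untreated cells. In MYCN-low cells the values were 74.1 and 94.8 CPM at day 8 and 853 and 742 CPM untreated. Its difference of 2.91 ± 0.66 passed (edgeR adjusted p = 0.0187) but lost the call in 4 of the 8 fits, those without either MYCN-high untreated library, MYCN-high day 8 library C or MYCN-low day 8 library B, with an adjusted p of up to 0.0877 in the last. For the list as a whole the count of 42 fell to 1 without MYCN-low day 8 library B, 4 and 9 without MYCN-high untreated libraries C and B, and 11 and 20 without MYCN-high day 8 libraries C and B.

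Genes of DNA replication and repair by homologous recombination were also higher in the difference. Of 48 replication genes 28 were higher and 0 lower (median 1.63), and of 27 recombination and Fanconi genes 16 were higher and 0 lower (median 1.78). Over all genes 4.41% were higher. In MYCN-low cells 48 and 22 of these list members fell (14.6% of all genes did), and in MYCN-high cells 1 and 1 fell (4.09% of all genes did). LIG1, the DNA ligase that seals Okazaki fragments, was at 70.3 and 82.2 CPM in MYCN-high cells at day 8 and 75.7 and 76.0 CPM in MYCN-high untreated cells. MYCN-low cells had 19.9 and 25.9 CPM at day 8 and 82.5 and 73.9 CPM untreated (difference 1.78 ± 0.24, edgeR adjusted p = 0.00103). Its MYCN-high day 8 libraries bracketed the untreated ones, and its MYCN-low day 8 libraries lay below all others of the groups compared. Other replication genes that kept the call were RNASEH2A, a subunit of the ribonuclease that removes RNA from DNA (2.50 ± 0.41), POLD1, the catalytic subunit of DNA polymerase delta (2.11 ± 0.38), POLA2 of the primase complex (1.75 ± 0.30), the helicase subunit MCM2 (1.98 ± 0.36), the kinase CDC7 that fires origins (1.66 ± 0.31) and TYMS, thymidylate synthase (1.44 ± 0.26). In the Fanconi list FANCA (2.70 ± 0.50) and FANCG (2.21 ± 0.37) of the core complex and the helicase BRIP1 (2.46 ± 0.44) did. Without MYCN-low day 8 library B, 7 replication genes and 3 Fanconi genes were called. Without MYCN-high untreated libraries B and C in turn these were 8 and 14 replication genes and 4 and 5 Fanconi genes, and without MYCN-high day 8 library C 8 and 5.

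Replication-dependent histone genes had the largest list median of the lists described here, 4.06. All 49 tested members were higher in the difference (4.41% of all genes were). These genes supply the histones of S phase, and their messenger RNAs mostly end without a poly(A) tail. HIST1H1B, which encodes a linker histone, was at 479 and 598 CPM in MYCN-high cells at day 8 and 429 and 501 CPM in MYCN-high untreated cells. The MYCN-low libraries were at 13.2 and 24.6 CPM at day 8 and 446 and 470 CPM untreated. The MYCN-high day 8 libraries overlapped the untreated ones, and the MYCN-low day 8 libraries were at a small fraction of any other in the groups compared. HIST1H1B had a difference of 4.81 ± 0.84 (edgeR adjusted p = 0.00518). Other histone genes among the largest differences were HIST1H2BB (5.62 ± 0.80), HIST1H3B (5.23 ± 0.80), HIST1H3D (4.86 ± 0.63) and HIST1H2AG (4.76 ± 0.66). In MYCN-low cells all 49 fell and in MYCN-high cells 0 changed in either direction at the adjusted threshold. The histone sum was 4885 and 6019 CPM in MYCN-high cells at day 8 and 4805 and 5584 CPM in MYCN-high untreated cells. In MYCN-low cells the values were 463 and 510 CPM at day 8 and 5831 and 4877 CPM untreated. At least 44 of the 49 were called without any 1 library, and 44 kept the call in all 8 fits. Near-identical copies share reads, so single histone genes are uncertain. The protocols describe removal of ribosomal RNA, while the molecule label reads polyA RNA. Of 5 tested structured RNAs that lack a poly(A) tail 1 was called, TERC, the telomerase RNA (2.95 ± 0.50), and the list median was 1.29. Their summed level was 4037 and 5008 CPM in MYCN-high cells at day 8 and 2583 and 2842 CPM in MYCN-high untreated cells. MYCN-low cells had 3116 and 2791 CPM at day 8 and 5894 and 2519 CPM untreated. Without MYCN-low untreated library C 4 of the 5 were called, and the part of these RNAs in the result was not tested.

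Regulators of the G1 to S transition were less uniform. Of 32 tested, 7 were higher and 1 lower in the difference, with a median of 0.76, beside 4.41% higher and 1.94% lower over all genes. The count of 7 was 3 without either MYCN-high untreated library, MYCN-low day 8 library B or MYCN-high day 8 library C, and 4 without MYCN-low day 8 library C. E2F8, a repressor of the E2F family that is made in S phase, stood at 13.2 and 16.9 CPM in MYCN-high cells at day 8 and 19.0 and 16.6 CPM in MYCN-high untreated cells. The MYCN-low libraries were at 0.688 and 1.31 CPM at day 8 and 16.6 and 14.4 CPM untreated (difference 3.67 ± 0.62, edgeR adjusted p = 0.00483). LIN9, a subunit of the DREAM and MuvB complexes (1.59 ± 0.29), and the CDK4 and CDK6 inhibitor CDKN2C (1.94 ± 0.36) were higher too. CCND1, cyclin D1, was the lower one, at 245 and 193 CPM in MYCN-high cells at day 8 and 296 and 166 CPM in MYCN-high untreated cells. In MYCN-low cells the values were 383 and 595 CPM at day 8 and 185 and 162 CPM untreated. Its MYCN-high libraries overlapped between day 8 and untreated. Within the groups compared its MYCN-low libraries at day 8 were above all others (difference -1.57 ± 0.36, edgeR adjusted p = 0.0187). That call was lost in 3 of the 8 fits, those without MYCN-high untreated library B, MYCN-high day 8 library C or MYCN-low day 8 library C. E2F1 had a difference of 1.87 ± 0.76 and did not pass (edgeR adjusted p = 0.158).

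**Figure D3:**
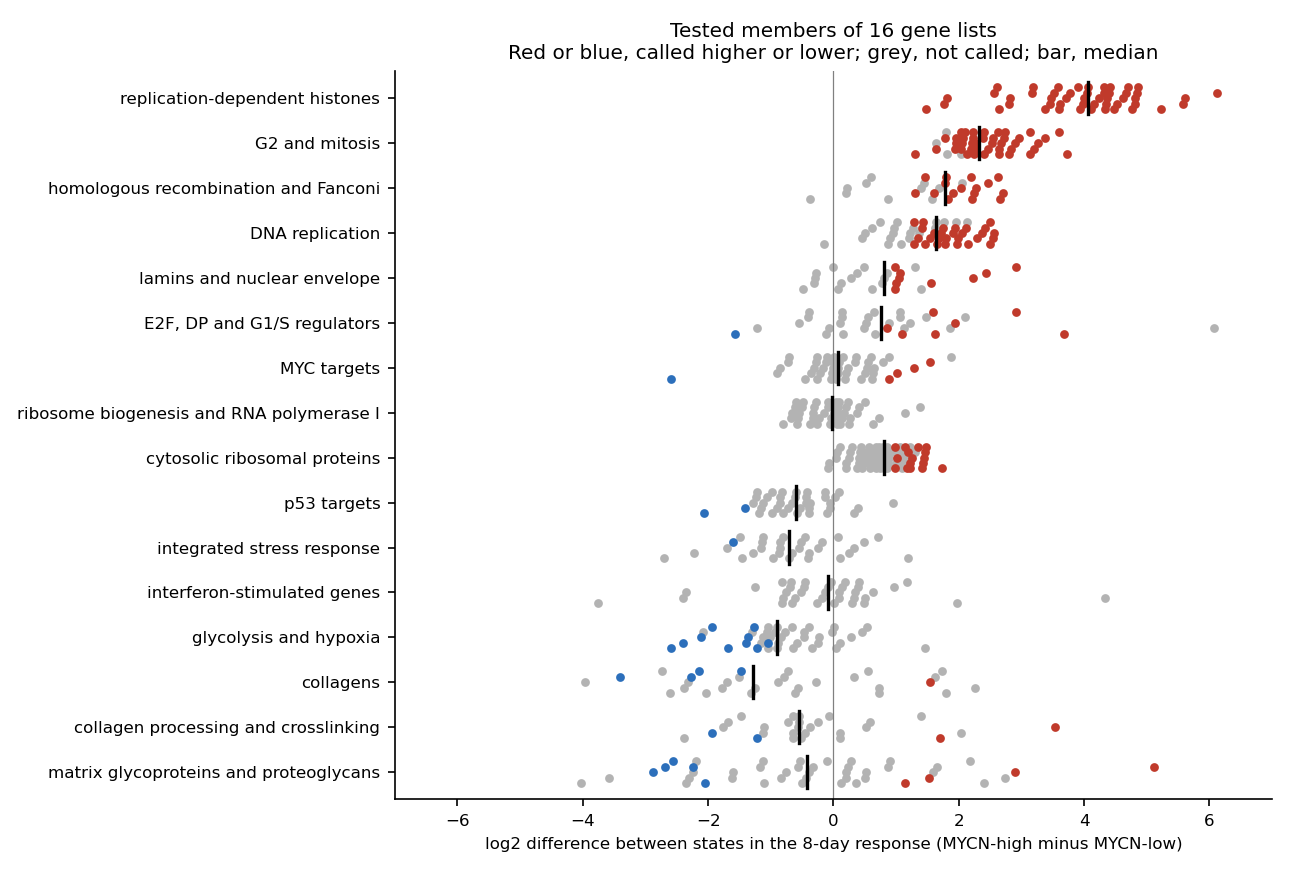
Log2 difference between states in the 8-day response (MYCN-high minus MYCN-low) for each tested member of 16 gene lists, with members called higher in red, called lower in blue and not called in grey, and the list median as a bar. Histone genes have a median of 4.06, mitosis genes of 2.33 and DNA replication genes of 1.63, glycolysis and hypoxia genes of -0.90 and collagens of -1.28, and 2 members fall outside the plotted range of plus or minus 7.

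Some targets of p53 rose at day 8 in each state. Of 38 tested, 10 were higher in MYCN-high cells at day 8 (4.49% of all genes were) and 25 in MYCN-low cells (10.2% of all genes were), while 2 were lower in the difference and 0 higher (median -0.60), a share near the 6.35% of all genes called. Their summed level was 2765 and 1876 CPM in MYCN-high cells at day 8, against 2589 and 1834 CPM in MYCN-high untreated cells, and 7279 and 6959 CPM in MYCN-low cells at day 8, against 10003 and 8993 CPM in MYCN-low untreated cells, so the sum did not follow the counts. CDKN1A was at 158 and 61.0 CPM in MYCN-high cells at day 8 and 23.5 and 22.9 CPM in MYCN-high untreated cells. MYCN-low cells had 657 and 569 CPM at day 8 and 117 and 81.2 CPM untreated. It rose in MYCN-high cells (2.24, edgeR adjusted p = 0.00126) and in MYCN-low cells (2.63, edgeR adjusted p = 9.24e-05), and the difference of -0.39 ± 0.47 did not pass (edgeR adjusted p = 0.674). The MYCN-low libraries held more CDKN1A than the MYCN-high libraries of the same condition, treated and untreated alike. GDF15, a stress cytokine, and the apoptosis gene BBC3 likewise had differences of -0.73 ± 0.89 and -1.24 ± 0.48 that did not pass (edgeR adjusted p = 0.674 and 0.133). C12orf5, which encodes the glycolysis regulator TIGAR, did pass, at 26.6 and 23.1 CPM in MYCN-high cells at day 8 and 30.4 and 26.6 CPM in MYCN-high untreated cells. The MYCN-low libraries were at 80.8 and 77.3 CPM at day 8 and 21.5 and 21.8 CPM untreated (difference -2.06 ± 0.26, edgeR adjusted p = 0.000528). The MYCN-low libraries at day 8 were the high ones among the groups compared, well clear of the rest. The other called target was MDM2, the ubiquitin ligase that degrades p53 (-1.40 ± 0.40, edgeR adjusted p = 0.0494), whose call was lost in 6 of the 8 fits, with an adjusted p of up to 0.204 without MYCN-high day 8 library C. The count of 2 was 7 without MYCN-high day 8 library B, 10 without MYCN-low untreated library C and 1 without any 1 of the libraries of MYCN-high untreated cells, of MYCN-low cells at day 8, or MYCN-high day 8 library C.

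Genes of glycolysis and the hypoxia response were lower in the difference in 10 of 41 cases and higher in 0, with a median of -0.90. Over all genes 1.94% were lower. At day 8, 23 of 41 rose in MYCN-low cells (10.2% of all genes did), against 6 in MYCN-high cells (4.49% of all genes did). The list sum was 11113 and 11541 CPM in MYCN-low cells at day 8, against 9342 and 9547 CPM untreated. In MYCN-high cells the sum was 10614 and 10238 CPM at day 8 and 11352 and 11695 CPM untreated. P4HA1, a subunit of the prolyl hydroxylase that matures collagen and a gene induced by hypoxia, stood at 188 and 184 CPM in MYCN-high cells at day 8 and 163 and 181 CPM in MYCN-high untreated cells. In MYCN-low cells it was at 840 and 767 CPM at day 8, against 162 and 227 CPM in untreated cells. Only MYCN-low cells at day 8 were high among the 4 groups, and the other 3 groups covered 162 to 227 CPM (difference -1.94 ± 0.26, edgeR adjusted p = 0.000799). VEGFA, the angiogenic growth factor, stood at 37.0 and 25.4 CPM in MYCN-high cells at day 8 and 37.2 and 34.7 CPM in MYCN-high untreated cells. Levels in MYCN-low cells were 98.1 and 68.8 CPM at day 8 and 24.1 and 20.1 CPM untreated (-2.12 ± 0.35, edgeR adjusted p = 0.00372). BNIP3, a mitophagy receptor, differed by -1.40 ± 0.22 (edgeR adjusted p = 0.00269). HK2, a hexokinase, was at 61.0 and 51.5 CPM in MYCN-high cells at day 8 and 92.1 and 106 CPM in MYCN-high untreated cells. MYCN-low cells had 40.0 and 25.7 CPM at day 8 and 8.46 and 10.7 CPM untreated (-2.59 ± 0.44, edgeR adjusted p = 0.00456). HK2 thus remained highest in MYCN-high cells, where it was lower at day 8 than untreated without passing the test (-0.81, edgeR adjusted p = 0.112), and it rose in MYCN-low cells (1.77, edgeR adjusted p = 0.001). These 4 genes kept the call in all 8 fits, and the list's count ran from 4 without MYCN-high day 8 library C, and 6 without MYCN-low day 8 library C, to 19 without MYCN-low untreated library C.

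SERPINF1, which encodes PEDF, a secreted inhibitor of angiogenesis, moved in opposite directions in the states. It was at 76.4 and 91.6 CPM in MYCN-high cells at day 8, against 14.5 and 9.72 CPM in MYCN-high untreated cells. In MYCN-low cells it was at 0.393 and 1.83 CPM at day 8, against 16.1 and 8.50 CPM in MYCN-low untreated cells. The untreated groups overlapped, and the day 8 groups lay on either side of them. It rose in MYCN-high cells (2.80, edgeR adjusted p = 0.00532) and fell in MYCN-low cells (-3.38, edgeR adjusted p = 0.00108), a difference of 6.17 ± 0.82 (edgeR adjusted p = 0.000799). The MYCN-low value at day 8 rests on few counts. Of 20 tested genes of secreted protease inhibitors 2 were called, SERPINF1 and TFPI2 (whose call was lost in 6 of the 8 fits), with a list median of -0.35. Over all genes 6.35% were called.

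Other matrix genes were also called in opposite directions. MFAP4, a microfibril protein, was at 43.2 and 110 CPM in MYCN-high cells at day 8 and 22.2 and 14.3 CPM in MYCN-high untreated cells. At day 8 MYCN-low cells were at 6.93 and 10.2 CPM, against 105 and 37.3 CPM untreated (5.12 ± 0.80, edgeR adjusted p = 0.00267). EMILIN1, an elastic fibre glycoprotein, was at 142 and 161 CPM in MYCN-high cells at day 8 and 60.4 and 58.9 CPM in MYCN-high untreated cells. Levels in MYCN-low cells were 60.5 and 49.0 CPM at day 8 and 202 and 120 CPM untreated (2.90 ± 0.46, edgeR adjusted p = 0.00284). In both genes the day 8 libraries lay above the untreated ones in MYCN-high cells and below them in MYCN-low cells. MDK, the growth factor midkine, followed the same order with a difference of 2.79 ± 0.56 (edgeR adjusted p = 0.0111), and the call was lost without MYCN-low day 8 library B (adjusted p = 0.0571) or MYCN-high untreated library C. COL8A1, a short-chain collagen, had the opposite order, at 15.1 and 9.28 CPM in MYCN-high cells at day 8 and 51.2 and 23.7 CPM in MYCN-high untreated cells. MYCN-low cells had 518 and 430 CPM at day 8 and 180 and 94.0 CPM untreated (-3.41 ± 0.67, edgeR adjusted p = 0.00986, and 0.0629 without MYCN-high day 8 library C, with the call lost also without MYCN-high untreated library B).

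As groups, matrix genes went both ways. Of 44 matrix glycoproteins and proteoglycans 4 were higher and 5 lower (median -0.41). Of 28 genes of collagen processing and crosslinking 2 were higher and 2 lower (median -0.55). Of 32 collagens 1 was higher and 5 lower (median -1.28). Over all genes 4.41% were higher and 1.94% lower. THBS2, a matricellular glycoprotein, was at 57.9 and 58.4 CPM in MYCN-high cells at day 8 and 118 and 83.4 CPM in MYCN-high untreated cells. At day 8 MYCN-low cells were at 1253 and 598 CPM, against 346 and 152 CPM untreated (-2.69 ± 0.51, edgeR adjusted p = 0.0082). Its MYCN-low libraries at day 8 lay above the untreated ones and its MYCN-high libraries at day 8 below them, although the MYCN-high change alone did not pass (edgeR adjusted p = 0.192). PCOLCE, which enhances procollagen cleavage (3.54 ± 0.67), and the procollagen protease ADAMTS3 (1.71 ± 0.30) were higher. Summed over the collagens the level was 2004 and 2128 CPM in MYCN-high cells at day 8 and 2144 and 2199 CPM in MYCN-high untreated cells. Levels in MYCN-low cells were 20618 and 10289 CPM at day 8 and 11744 and 7188 CPM untreated. No collagen kept its call in all 8 fits, and the 5 lower ones were 0 without MYCN-high untreated library B or MYCN-high day 8 library C, 2 without MYCN-high untreated library C, 3 without MYCN-high day 8 library B and 1 without MYCN-low day 8 library B. With the 4 collagens that had a group at 0 counts set to their bound at 3 counts over the group, the list median was -0.84.

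Genes lower in the difference through a fall in MYCN-high cells formed another set. FILIP1L, which encodes a filamin-binding protein, was at 19.3 and 15.8 CPM in MYCN-high cells at day 8 and 331 and 210 CPM in MYCN-high untreated cells. MYCN-low cells had 502 and 694 CPM at day 8 and 361 and 444 CPM untreated. The MYCN-high libraries at day 8 were the low ones, and the difference was -4.52 ± 0.56 (edgeR adjusted p = 0.000495), with a fall of -3.95 ± 0.43 in MYCN-high cells. CXCR7, a scavenger receptor for CXCL12, was at 0.186 and 0.422 CPM in MYCN-high cells at day 8 and 5.46 and 11.8 CPM in MYCN-high untreated cells. In MYCN-low cells its values were 10.6 and 9.41 CPM at day 8 and 19.1 and 18.7 CPM untreated (-3.91 ± 0.68, edgeR adjusted p = 0.00483). GFRA1, a receptor for GDNF, differed by -3.87 ± 0.71 (edgeR adjusted p = 0.00666). The MYCN-high libraries at day 8 were the lowest for CXCR7 among the groups compared, clear of the rest. Genes chosen after their values were seen, by the same ranking without histones, were MCAM, an adhesion molecule of the immunoglobulin family (-2.86 ± 0.47), the phosphodiesterase PDE5A (-2.65 ± 0.33), the semaphorin SEMA3D (-2.80 ± 0.48) and EMILIN2 (-3.18 ± 0.51), and each fell in MYCN-high cells with no call in MYCN-low cells. Among the genes that rose in MYCN-high cells, THSD7A, which encodes a membrane protein with thrombospondin repeats, was at 107 and 120 CPM there at day 8 and 2.24 and 0.694 CPM in MYCN-high untreated cells. Levels in MYCN-low cells were 4.08 and 3.24 CPM at day 8 and 0.989 and 1.44 CPM untreated (4.72 ± 0.63, edgeR adjusted p = 0.000831). It rose in both states, and the MYCN-high libraries at day 8 were far above the other 6.

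Of 45 genes that MYC proteins are known to activate 4 were higher and 1, HK2, lower (median 0.07), beside 4.41% higher and 1.94% lower over all genes, and of 44 genes for making ribosomes edgeR called 0, with 6 higher and 4 lower at an unadjusted p under 0.05 and 2 called lower by the Wald test of DESeq2. FBL, the methylase of ribosomal RNA called fibrillarin, was the higher MYC target that kept its call, at 73.8 and 82.4 CPM in MYCN-high cells at day 8 and 83.2 and 78.7 CPM in MYCN-high untreated cells. MYCN-low cells had 10.7 and 11.1 CPM at day 8 and 32.5 and 33.3 CPM untreated (1.54 ± 0.29, edgeR adjusted p = 0.00732). Of 71 cytosolic ribosomal proteins 16 were higher and 0 lower (median 0.80), but 0 were called without MYCN-high untreated library B, MYCN-low day 8 library B or MYCN-high day 8 library C, 1 without MYCN-high untreated library C, 10 without MYCN-low untreated library B or MYCN-low day 8 library C, and 33 with the library letter as a block. Among 37 interferon-stimulated genes edgeR called 0, with 3 higher and 6 lower at an unadjusted p under 0.05 and 1 higher and 3 lower by the Wald test of DESeq2. Among 43 secretory senescence factors 2 were higher and 2 lower (median 0.07), and among 30 NF-kappaB targets and regulators 1 and 1 (median 0.13), counts near those of all genes. HAND2, an adrenergic transcription factor, was at 270 and 325 CPM in MYCN-high cells at day 8 and 100.3 and 131 CPM in MYCN-high untreated cells. It was at 62.2 and 109 CPM in MYCN-low cells at day 8 and 122 and 105 CPM in MYCN-low untreated cells. The MYCN-high libraries at day 8 were the high ones (1.77 ± 0.49, edgeR adjusted p = 0.0435), but the call was lost in 6 of the 8 fits, all but those without MYCN-low untreated library C or MYCN-low day 8 library C. Of 35 neuroblastoma identity factors 2 were higher and 1 lower (median 0.12), near the share over all genes. Of 7 mesenchymal markers tested 3 had a positive value (median -0.07). ZEB2 was lower (-0.98, edgeR adjusted p = 0.0429), a call not kept in all 8 fits without a library. TWIST1, a mesenchymal transcription factor of the identity list, kept its call. It was at 48.8 and 60.8 CPM in MYCN-high cells at day 8 and 41.9 and 47.2 CPM in MYCN-high untreated cells. At day 8 MYCN-low cells were at 33.7 and 32.3 CPM, against 140 and 118 CPM untreated (2.27 ± 0.23, edgeR adjusted p = 0.000149).

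The day 8 difference was then set against the one at the end of treatment, a contrast in which the untreated groups cancel. At the adjusted threshold the difference changed between these times in 1468 genes (9.92%), and was higher at day 8 in 820 and lower in 648. Of the 652 genes higher in the day 8 difference 218 were also higher in this contrast, and of the 287 lower ones 84 were also lower in it. DNA replication genes had moved apart after washout, with 23 of 48 higher in this contrast and 1 lower (5.54% of all genes were higher), as had 10 of 27 Fanconi and recombination genes and 23 of 49 histone genes. For mitosis genes a change of the difference between states from 72 h to day 8 was mostly not called, with 1 higher and 4 lower (median -0.43). This contrast does not test whether their levels changed within a state. The median of their difference was 2.83 at 72 h, 3.87 at day 3 and 2.33 at day 8. Some MYCN-low values at 72 h were at the floor, as for TROAP at 0 and 0 CPM. Lysosome and autophagy genes were lower in 19 of 37 cases and NF-kappaB targets in 10 of 30 (4.38% of all genes were lower), with medians of -1.09 and -1.68. Against the day 3 difference 9 of 37 lysosome and autophagy genes and 3 of 21 genes of MHC class I presentation were lower, with 0 higher in either list. In the same contrast 1 mitosis gene was lower and 6 histone genes were higher. The count over all genes was 176 (1.19%), 77 higher (0.521%) and 99 lower (0.669%). Without 1 library this last count ran from 0, without MYCN-high day 8 library C, where 1453 genes had an unadjusted p under 0.05, to 213, and it was 15, 22, 1, 34 and 15 without MYCN-high day 3 libraries B and C, MYCN-low day 3 libraries C and B and MYCN-low day 8 library C.

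Over the whole course, LMNB1 stood at 13.2 and 32.7 CPM in MYCN-high cells at 72 h, 93.4 and 102 CPM at day 3, 258 and 319 CPM at day 8 and 306 and 294 CPM at day 14. In MYCN-low cells it stood at 8.81 and 10.7 CPM at 72 h, 6.43 and 10.2 CPM at day 3, 25.6 and 35.3 CPM at day 8 and 26.8 CPM in the single library at day 14. Both states were thus far below their untreated libraries at 72 h, and both MYCN-high libraries lay above the MYCN-low ones at each of these times, as in untreated cells. The day 8 difference exceeded that at 72 h by 2.01 ± 0.45 (edgeR adjusted p = 0.0129) and did not differ detectably from that at day 3 (-0.31, edgeR adjusted p = 0.79). SERPINF1 stayed at 9.42 to 18.2 CPM in MYCN-high cells at 72 h and day 3 and at 17.0 and 60.2 CPM at day 14, below its day 8 libraries, while in MYCN-low cells it was at 4.04 and 3.19 CPM at 72 h, 1.63 and 1.82 CPM at day 3 and 0.713 CPM at day 14. Its day 8 difference exceeded that at 72 h by 4.23 (edgeR adjusted p = 0.00545), and the step from day 3 did not pass (3.26, edgeR adjusted p = 0.0741). P4HA1 was at 294 and 249 CPM in MYCN-high cells at 72 h, 330 and 312 CPM at day 3 and 192 and 204 CPM at day 14. In MYCN-low cells it was at 461 and 539 CPM at 72 h, 738 and 578 CPM at day 3 and 1168 CPM at day 14. Both states stood above their untreated libraries at 72 h, and MYCN-high cells alone were close to them again at day 8. The day 8 difference of P4HA1 was lower than that at 72 h by -1.23 (edgeR adjusted p = 0.00792).

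**Figure D4:**
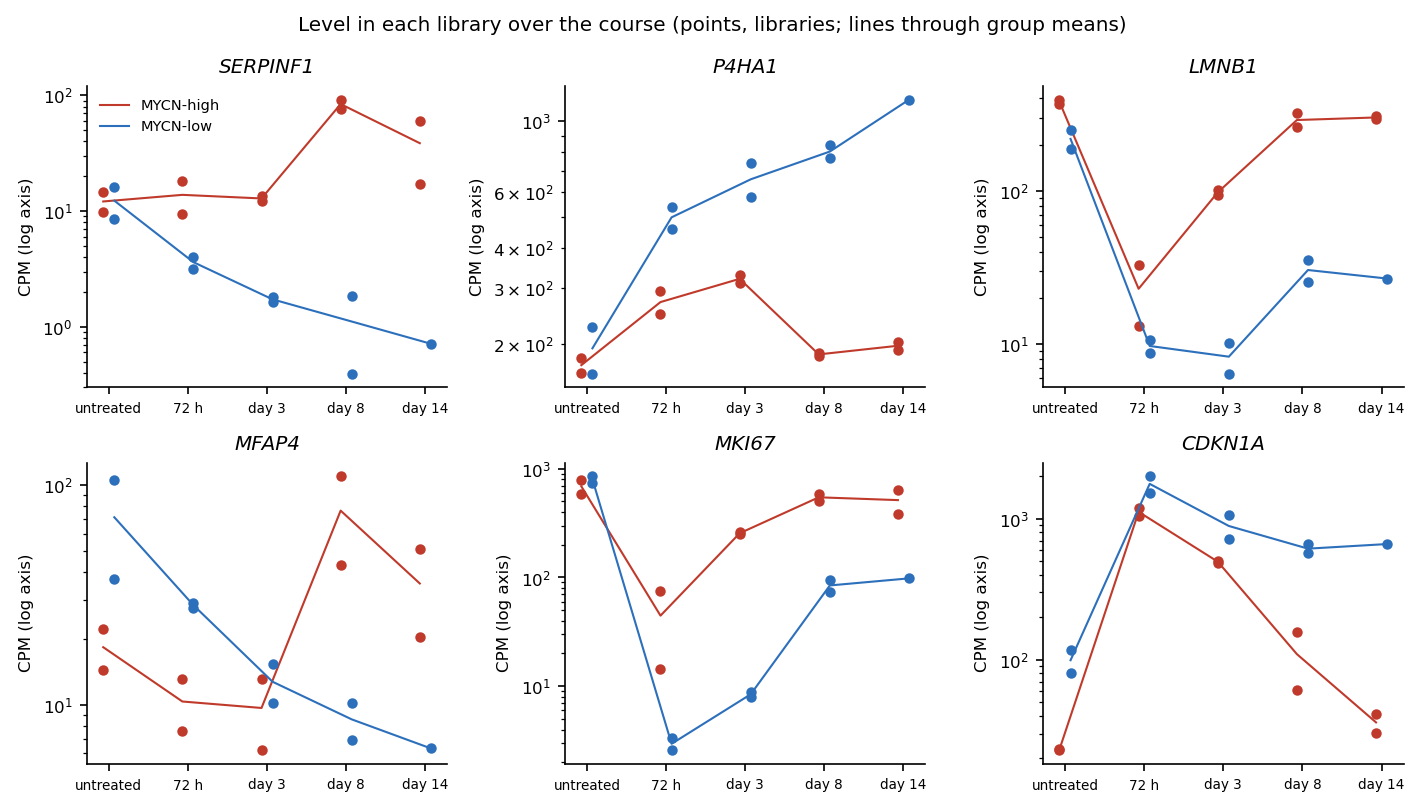
Level of 6 genes in CPM on a log axis in untreated cells, at 72 h of doxorubicin and at days 3, 8 and 14 after washout, spaced evenly, with 1 point per library and lines through the group means (MYCN-high red, MYCN-low blue). LMNB1 and MKI67 recover in MYCN-high cells by day 8 and stay low in MYCN-low cells, and SERPINF1 and MFAP4 are high in MYCN-high cells at day 8. P4HA1 is highest in MYCN-low cells at day 14, with 1 library. CDKN1A is higher in MYCN-low than in MYCN-high cells at every time shown, untreated cells included.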

How the data were processed

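RNA sequencing counts of 19 libraries in 10 groups were analysed, 8 of them in the comparison described here. The authors deposited raw read counts per gene symbol for 23367 genes and 92 ERCC RNAs. The submitters' processing notes name STAR 2.4.0h1, HTSeq and the hg19 build, while annotation, strand setting and filters are not given in the sources used here. Per the labels' protocols ERCC mix was added, ribosomal RNA was removed with RiboGold and libraries were made with ScriptSeq.

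ERCC rows were left out, genes were kept by filterByExpr (14793), and a quasi-likelihood model with 1 coefficient per group was fitted to all 19 libraries with TMM scaling in edgeR 4.0.16 (R 4.3.3). It had 9 residual degrees of freedom and a biological coefficient of variation of 0.204. Contrasts were adjusted by the Benjamini-Hochberg method over all tested genes, with a threshold of 0.05. The standard error is the size of the log2 value divided by the square root of F. The precision of a value follows from 17131976 to 27664604 counts per library of the comparison and from 2 libraries per group. The spread behind the p-values was estimated within the groups of all 19 libraries, not within the groups of the comparison alone.

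Named genes were LMNB1, P4HA1 and SERPINF1, up to 15 genes per direction by size of the difference (at least 1 on the log2 scale and a mean of at least 5 CPM), up to 4 called members per list and direction by smallest p, up to 5 genes called in opposite directions, and a panel of cell cycle, p53 and MYC genes, with some left out for length. The members, lists and rules were chosen with earlier results of these data known. Lists are described by counts and medians beside those of all genes. Alternatives were DESeq2 1.42.0 size factors and Wald test, no filter on low counts, the library letter as a block, ERCC scaling, only the groups of the contrast, and leaving out each library. The procedure was tested on simulated counts drawn with the spread fitted to these data. That run checks the procedure alone and does not bear on how calls change without a library. Promoters are RefSeq's on GRCh38.p14, matched by symbol (10036 tested genes) or synonym (1126). Plots used matplotlib 3.10.9 in Python 3.11.15.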

Additional observations from a re-analysis of the deposited data

Results flagged for a closer look

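The difference between MYCN states was itself tested for every gene, and 939 genes passed at day 8. Of the further contrasts, 1468 genes passed for the day 8 difference against that at 72 h and 176 against that at day 3. The marker genes SERPINF1 (6.17), P4HA1 (-1.94) and LMNB1 (2.44) were among the 939, given as log2 differences between the responses of MYCN-high and MYCN-low cells. Besides SERPINF1, the genes with the largest differences among those called in opposite directions in the states, at a mean of at least 5 CPM, were MFAP4 (5.12), COL8A1 (-3.41), EMILIN1 (2.90) and MDK (2.79). No test for an outlying library was run, since each group holds 2.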

How the results depend on the processing

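The 939 genes of the day 8 difference became 1625 with the Wald test of DESeq2, 1931 with no filter on low counts, 541 with only the groups of the contrast and 0 with ERCC scaling, where the median over all genes shifted by 0.12. In fits without 1 library the count ran from 246 to 3036 (248 and 373 without MYCN-high untreated libraries B and C, 790 without MYCN-low untreated library B, 623 without MYCN-high day 8 library B, 266 and 556 without MYCN-low day 8 libraries B and C). The genes shared with the 939 had the same sign in each alternative that called any, ERCC scaling calling 0, and none of the 146 named called genes was reversed, while 57 of them kept the call in all 8 fits without a library and 0 in every alternative. The cause of these changes was not tested.

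For day 8 against untreated cells, the 1269 genes of MYCN-high cells became 2031 (Wald test), 2080 (no filter), 4 (ERCC scaling) and 2384 (only the groups of the contrast), and 347 to 561 without 1 library. The 3681 genes of MYCN-low cells became 0 with ERCC scaling (584 at an unadjusted p under 0.05), 1153 with only the groups of the contrast, and 1948 to 5111 without 1 library. The 1468 genes of the day 8 against the 72 h difference became 2293 with no filter, 0 with ERCC scaling (327 unadjusted) and 473 to 1308 without 1 library. The 176 genes of the day 8 against the day 3 difference became 680 (Wald test), 1006 (no filter), 0 (ERCC scaling, 124 unadjusted), 584 (only the groups of the contrast) and 0 to 213 without 1 library. Of genes not called in any of these fits, MYCN had a difference of -0.24 to 0.38, with the sign reversed without MYCN-low untreated library B, and CDKN1A of -1.23 to 0.14, reversed without MYCN-high day 8 library C.

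The letters B and C were not treated as pairing the libraries, since the labels do not say that they mark a shared day or batch. Correlations of same-letter deviations between groups were all positive, from 0.046 to 0.182, and do not settle whether the letters pair the libraries. With the letter as a replicate block 1276 genes were called in the day 8 difference, all 939 among them, and 324 in the day 8 against the day 3 difference.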
